A study of Homo sapiens with 6 samples.

Results

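The 10 genes described here, ATM, ATR, CHEK1, CHEK2, CLSPN, TOPBP1, MDC1, ATRIP, RAD17 and HUS1, encode kinases, mediators and sensors of the DNA damage checkpoint. They were taken by gene name from a table of 58735 genes, and each name matched 1 entry. The 6 libraries came from MDA-MB-231, a human breast adenocarcinoma line that lacks hormone receptors. Of these, 3 libraries were controls at 0 Gy and 3, labelled RT, received 10 Gy from a caesium source with RNA taken 24 h later. All carry the genotype label WT, while their column names read SCR, which in the study stands for cells with a non-targeting shRNA. The line is 1 established culture, and the labels do not say whether the 3 libraries of a group came from separate cultures or separate exposures, so the p-values below measure the spread between these libraries, which may be technical.

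After DNA damage, cells stop dividing through 2 linked kinase pathways. ATM responds to double-strand breaks and activates CHEK2, and MDC1 holds the ATM response on chromatin next to the break by binding phosphorylated histone H2AX. ATR, carried to single-stranded DNA by its partner ATRIP, responds to stalled replication forks and resected breaks. RAD17 loads a ring-shaped clamp, of which HUS1 is a subunit, at these sites, TOPBP1 is recruited there and switches ATR on, and CLSPN presents CHEK1 to ATR for phosphorylation. Most of this signalling works through phosphorylation of existing protein, which an RNA level does not measure.

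At 24 h after 10 Gy, ATM and MDC1 transcripts were higher, CLSPN was lower, and 7 of the 10 genes gave no call. Levels are in FPKM, fragments scaled by library depth and by gene length, here the merged exons of all annotated transcripts. Levels of different genes therefore compare only as far as that length matches the transcripts expressed. ATM rose 1.32-fold and MDC1 rose 1.20-fold, while CLSPN fell to 0.729 of its control level. A call is an adjusted p under 0.05 from limma on log2(FPKM + 1) with Benjamini-Hochberg adjustment over the 12128 genes whose mean reached 1 FPKM, a filter that all 10 passed. By the same rule 11.9% of all genes tested were higher, 23.7% were lower and 35.6% were called in either direction. The count of 3 in 10 checkpoint genes is close to that background. The median log2 difference was -0.02 over the 10 genes and -0.04 over all genes tested.

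The promoters of the 3 called genes are printed here because ATM and MDC1 moved one way and CLSPN the other. Each runs from 250 bases before to 50 bases after the first RefSeq start listed for the gene (GRCh38.p14), 5′ to 3′ on the strand of the gene. Capitals mark 3 kinds of motif, searched on both strands. The E2F core was searched as TTCCCGC, and in its other form the letters were TTGGCGC. The box bound by the factor NF-Y was searched by its letters CCAAT. The cell cycle homology region, or CHR, was searched as TTTGAA. No match overlapped another. The CLSPN window is chr1:35769929-35770228 on the minus strand, the MDC1 window chr6:30717232-30717531 on the minus strand and the ATM window chr11:108222817-108223116 on the plus strand.
CLSPN: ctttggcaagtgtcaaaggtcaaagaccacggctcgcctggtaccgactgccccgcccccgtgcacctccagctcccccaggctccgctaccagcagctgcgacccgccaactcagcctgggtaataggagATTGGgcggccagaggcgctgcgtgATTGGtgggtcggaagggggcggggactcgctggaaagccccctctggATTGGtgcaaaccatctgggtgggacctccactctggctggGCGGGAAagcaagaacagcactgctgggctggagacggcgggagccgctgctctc
MDC1: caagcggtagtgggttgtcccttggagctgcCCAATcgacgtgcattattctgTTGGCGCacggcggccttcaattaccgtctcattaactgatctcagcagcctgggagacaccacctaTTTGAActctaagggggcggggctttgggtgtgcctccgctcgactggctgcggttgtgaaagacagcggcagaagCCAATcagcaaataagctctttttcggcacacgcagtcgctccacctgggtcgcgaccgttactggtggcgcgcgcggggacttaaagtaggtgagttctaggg
ATM: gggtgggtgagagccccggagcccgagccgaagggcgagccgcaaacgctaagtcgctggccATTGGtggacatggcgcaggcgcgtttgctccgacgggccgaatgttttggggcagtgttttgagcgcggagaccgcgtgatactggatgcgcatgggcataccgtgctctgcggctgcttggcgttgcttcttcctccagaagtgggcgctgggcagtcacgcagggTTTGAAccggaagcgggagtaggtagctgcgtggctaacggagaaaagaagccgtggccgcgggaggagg

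The CLSPN window held an E2F core beginning 5 bases before the start, on the opposite strand, and 3 CCAAT boxes. MDC1 held the other E2F form 197 bases before its start, 2 CCAAT boxes and a CHR. ATM held 1 CCAAT box and a CHR beginning 20 bases before the start, and no E2F core. RefSeq windows were found for 9 of the 10 genes. Among those 9, an E2F core in either form was present in 3 (CLSPN, MDC1 and TOPBP1), against 9.33% of 27305 human windows of the same length. A CCAAT box was present in 6 of the 9, against 35.7% of all windows, and a CHR in 2 of the 9, against 15.4%. The share of G and C bases was 58.3% in the median window and ran from 57.3% (MDC1) to 73.7% (ATRIP) in the 9. The part of base content in these shares of motifs was not tested. The windows of ATR and RAD17 held none of these letters. The ATM window shares 72 bases with that of NPAT, a histone gene activator transcribed away from ATM on the other strand. The start used for MDC1 lies 608 bases inside the outermost end of the gene in the table, and that for ATM 583 bases inside. For CHEK1 it lies 1093 bases inside, for CHEK2 602, for RAD17 525 and for TOPBP1 439. RefSeq listed 3 windows each for CHEK1 and RAD17. These windows thus describe 1 of several possible starts, also where no motif was found.

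At 0 Gy the genes ordered from CLSPN, the highest, through CHEK1, TOPBP1, RAD17, MDC1, ATRIP, ATR, ATM and HUS1 to CHEK2, the lowest. CLSPN averaged 15.7 FPKM ± 0.774 (SD, n = 3) and CHEK2 2.48 ± 0.312. CLSPN stood at percentile 72.4 of all genes tested by control level and CHEK2 at percentile 22.2. The control libraries of neighbours in this order overlapped for ATRIP with ATR and for ATR with ATM, so the place of ATR next to each is within the spread between libraries, while every ATRIP control was above every ATM control. The apical kinases ATM and ATR were at lower FPKM than the effector kinase CHEK1 (13.7 ± 0.170), and CHEK1 was far above CHEK2. At 10 Gy CHEK1 came first, at 12.9 ± 0.355 FPKM, and CLSPN came after CHEK1 and TOPBP1, at 11.5 ± 0.641. ATM moved above both ATR and ATRIP, and its irradiated libraries did not overlap those of ATR. At 10 Gy the libraries of neighbours overlapped for TOPBP1 with CLSPN, CLSPN with MDC1, MDC1 with RAD17, ATR with ATRIP and HUS1 with CHEK2.

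**Figure D1:**
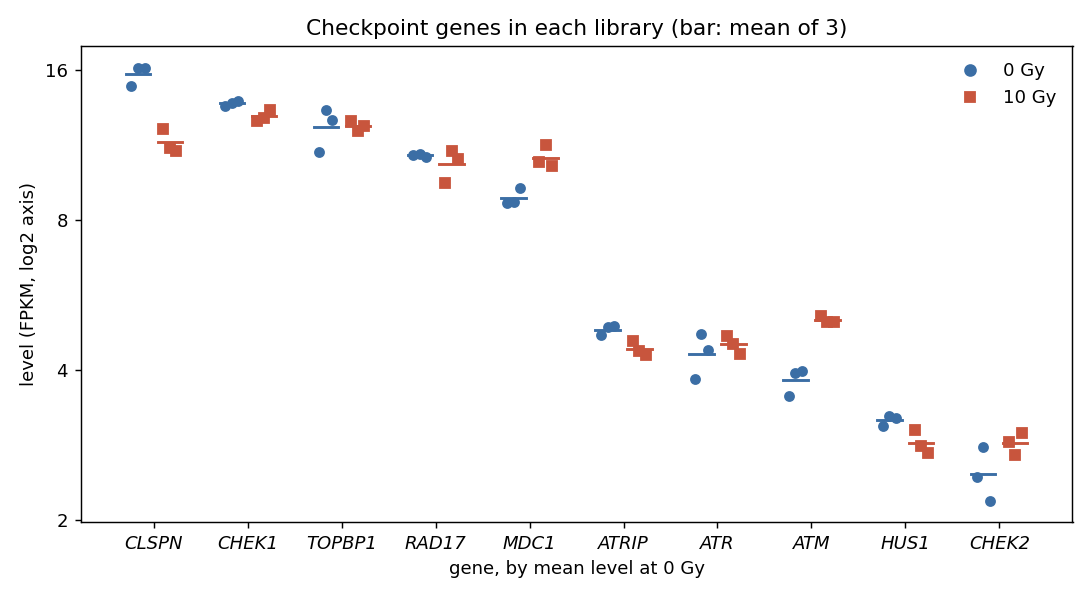
Level of each checkpoint gene in every library, in FPKM on a log2 axis, with genes ordered by their mean at 0 Gy (circles, 0 Gy; squares, 10 Gy; bar, mean of 3). The irradiated libraries of ATM (4.99 to 5.14) and MDC1 (10.3 to 11.3) lie above all controls, those of CLSPN, CHEK1, ATRIP and HUS1 lie below all controls, and those of TOPBP1, RAD17, ATR and CHEK2 overlap them.

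ATM is the kinase that answers double-strand breaks (ENSG00000149311, chr11:108222484-108369102, plus strand, GRCh38). Its level was 3.55, 3.96 and 3.98 FPKM in control replicates 1 to 3 and 5.14, 5.00 and 4.99 FPKM in RT replicates 1 to 3. Every irradiated library was above every control, and control replicate 1 was the lowest of the 6. The means were 3.83 ± 0.242 at 0 Gy and 5.04 ± 0.0826 at 10 Gy (SD, n = 3), a log2 difference of 0.32 ± 0.05 (SE) with an adjusted p of 0.00351 by limma. Of all genes tested, 5.24% had a larger rise. The level rests on 1458 to 3683 reads per library. At 23972 bases of merged exons ATM is the longest of the 10 genes, and genes of at least 10000 bases had a median log2 difference of 0.05 (n = 1227), against -0.07 for genes under 2000 bases (n = 2121). With the trend of the differences on gene length removed, an alternative chosen after the data were seen, the ATM difference was 0.20 with an adjusted p of 0.00805. The difference was 0.50 on TPM values, in which each library is rescaled to the same sum. TPM values are larger than FPKM, so the 1 added before log2 also weighs less. With 0.1 added to FPKM in place of 1, the ATM difference was 0.39.

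The head of ATM overlaps that of NPAT by 159 bases. NPAT was at 5.12 ± 0.217 FPKM at 0 Gy and 4.84 ± 0.0943 at 10 Gy, a log2 difference of -0.07 with an adjusted p of 0.264 by limma. The pair that shares this promoter region therefore gave a call for ATM only, and the difference between the 2 genes was not tested. C11orf65 lies antisense over 60584 bases of ATM and had 1 to 5 reads per control library and 11 to 14 per irradiated library, few beside those of ATM. Whether the counting used strand is not stated, so reads of ATM and of such an antisense gene cannot be told apart.

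MDC1, the chromatin adaptor of the ATM response (ENSG00000137337, chr6:30699807-30717889, minus strand), was at 8.65, 8.72 and 9.27 FPKM in the controls and at 10.5, 11.3 and 10.3 FPKM after irradiation. The groups did not overlap, and RT replicate 2 was the highest library. The means were 8.88 ± 0.340 and 10.7 ± 0.549 (SD, n = 3), and the log2 difference was 0.24 ± 0.05 (SE) with an adjusted p of 0.00796 by limma. On TPM values it was 0.39. The antisense transcript MDC1-AS1 reached at most 0.0453 FPKM in any library. MDC1 sits at 8064 bases, and with the length trend removed its difference was 0.25.

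CHEK2, the kinase downstream of ATM (ENSG00000183765, chr22:28687743-28742422, minus strand), was the lowest of the 10 genes. Its level was 2.44, 2.81 and 2.19 FPKM in the controls and 2.87, 2.71 and 2.99 FPKM after irradiation. The groups overlapped, since control replicate 2 was above RT replicate 2. CHEK2 had a log2 difference of 0.15 with a 95% interval of -0.03 to 0.33 and an adjusted p of 0.157 by limma. CHEK2 had the fewest reads, 194 to 385 per library. A limma voom fit to reads recovered from the FPKM values gave 0.31 with an adjusted p of 0.0182, and TPM values over the same 12128 genes gave 0.31 with an adjusted p of 0.0403 by limma. CHEK2 was called in these 2 of 18 alternatives. The 4 pseudogenes named for CHEK2 in the table were listed at 0 in all 6 libraries. The counting program is not given, so reads that match both CHEK2 and a pseudogene may be counted in CHEK2 or in neither. HSCB, which overlaps CHEK2 by 392 bases on the other strand, went from 6.25 to 5.59 FPKM without a call.

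On the ATR side, the kinase itself and its activator gave no call. ATR (ENSG00000175054, chr3:142449235-142578826, minus strand) was at 3.84, 4.73 and 4.39 FPKM in the controls and at 4.69, 4.52 and 4.31 FPKM after irradiation. The irradiated libraries fell inside the range of the controls. ATR had a log2 difference of 0.05 with a 95% interval of -0.11 to 0.21 and an adjusted p of 0.575 by limma, and without control replicate 1 it was -0.01. TOPBP1, the ATR activator (ENSG00000163781, chr3:133598175-133662380, minus strand), was at 11.0, 13.3 and 12.7 FPKM in the controls and at 12.6, 12.1 and 12.4 FPKM after irradiation. Its irradiated libraries also lay within the control range, whose low end was again control replicate 1. TOPBP1 had a log2 difference of 0.01 with a 95% interval of -0.14 to 0.16 and an adjusted p of 0.929 by limma. Without control replicate 1 it was -0.07.

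ATRIP, which brings ATR to single-stranded DNA (ENSG00000164053, chr3:48446710-48467645, plus strand), was at 4.71, 4.88 and 4.90 FPKM in the controls and at 4.59, 4.38 and 4.29 FPKM after irradiation. All irradiated libraries were below all controls, though the gap between RT replicate 1 and control replicate 1 was small. The log2 difference was -0.11 with a 95% interval of -0.21 to -0.0047, an interval not corrected for the number of genes, and the adjusted p was 0.0949 by limma. On TPM values the difference was 0.00030. The exonuclease gene TREX1 lies within ATRIP on the same strand for its whole 1835 bases and was listed at 0 in all 6 libraries. The counting program is not given, so reads of this shared stretch may be counted in ATRIP or in neither gene.

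CHEK1 and its mediator CLSPN, which act together below ATR, differed in size of change. CLSPN (ENSG00000092853, chr1:35720218-35769967, minus strand) was at 14.9, 16.2 and 16.2 FPKM in the controls and at 12.2, 11.2 and 11.0 FPKM after irradiation. Every irradiated library was below every control. The means were 15.7 ± 0.774 and 11.5 ± 0.641 (SD, n = 3), and the log2 difference was -0.42 ± 0.05 (SE) with an adjusted p of 0.00155 by limma. Of all genes tested, 2.10% had a larger fall. CHEK1 (ENSG00000149554, chr11:125625136-125676255, plus strand) was at 13.6, 13.8 and 13.9 FPKM in the controls and at 12.7, 12.8 and 13.3 FPKM after irradiation. Its groups did not overlap either, with RT replicate 3 close below control replicate 1. The log2 difference was -0.08 with a 95% interval of -0.16 to -0.0037 and an adjusted p of 0.0949 by limma. On TPM values it was 0.04 and after upper quartile scaling 0.0035, so the direction of CHEK1 depended on scaling. CHEK1 shares 80 bases with the end of STT3A on the same strand, whose level went from 39.0 to 33.5 FPKM (log2 difference -0.21, adjusted p of 0.00942 by limma).

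RAD17 of the clamp loader and HUS1 of the clamp gave no call. RAD17, the loader subunit (ENSG00000152942, chr5:69369293-69414801, plus strand), was at 10.8, 10.9 and 10.7 FPKM in the controls and at 9.50, 11.0 and 10.6 FPKM after irradiation. The controls lay close together, and RT replicate 1 alone was well below them. The log2 difference was -0.06 with a 95% interval of -0.18 to 0.07 and an adjusted p of 0.426 by limma, and it was above 0 under 5 alternatives (0.0028 to 0.06). RAD17 shares 721 bases at its start with AK6 and TAF9 on the other strand. AK6 went from 14.2 to 11.8 FPKM (adjusted p of 0.0359 by limma) and TAF9 from 31.3 to 28.6 FPKM without a call. HUS1, the clamp subunit (ENSG00000136273, chr7:47963288-47979553, minus strand), was at 3.10, 3.23 and 3.21 FPKM in the controls and at 3.03, 2.82 and 2.72 FPKM after irradiation. All irradiated libraries were below all controls. HUS1 had a log2 difference of -0.12 with a 95% interval of -0.24 to 0.0046 and an adjusted p of 0.118 by limma.

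In total the libraries of the 2 groups did not overlap for 6 of the 10 genes, 2 of them higher and 4 lower, beside 51.9% of all genes tested (19.1% higher and 32.8% lower). The spread among controls was smallest for RAD17, with a coefficient of variation of 0.692%, and largest for CHEK2, at 12.6%. ATR (10.4%) and TOPBP1 (9.81%) came next, and both had their lowest level in control replicate 1. After irradiation RAD17 had the largest spread (7.50%) and ATM the smallest (1.64%).

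The direction of small differences depended on how libraries were scaled. The summed FPKM was 269611 to 278380 in the controls and 246920 to 254918 after irradiation, so TPM raised the irradiated libraries relative to the controls. TPM values were 3.59 to 4.05 times the FPKM with the same 1 added, so differences of low genes were also shrunk less. Over the same 12128 genes, an alternative added after the data were seen, log2(TPM + 1) moved the median of all genes tested by 0.12, from -0.04 to 0.08. Relative to that median, ATM was at 0.36 on FPKM and 0.42 on TPM, MDC1 at 0.28 and 0.31, and CLSPN at -0.39 and -0.40. The TPM alternative planned first tested the 16391 genes whose mean reached 1 TPM, with a median of 0.11. The share of called genes that were higher was 33.4% on FPKM, 76.9% on TPM over 16391 genes and 74.5% on TPM over the same 12128, 63.9% after upper quartile scaling, 60.2% with voom, 48.7% after median-of-ratios scaling and 47.5% with the length trend removed. ATM, MDC1 and CLSPN kept their calls and directions in every alternative that tested them, 18 for ATM and 19 each for MDC1 and CLSPN.

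**Figure D2:**
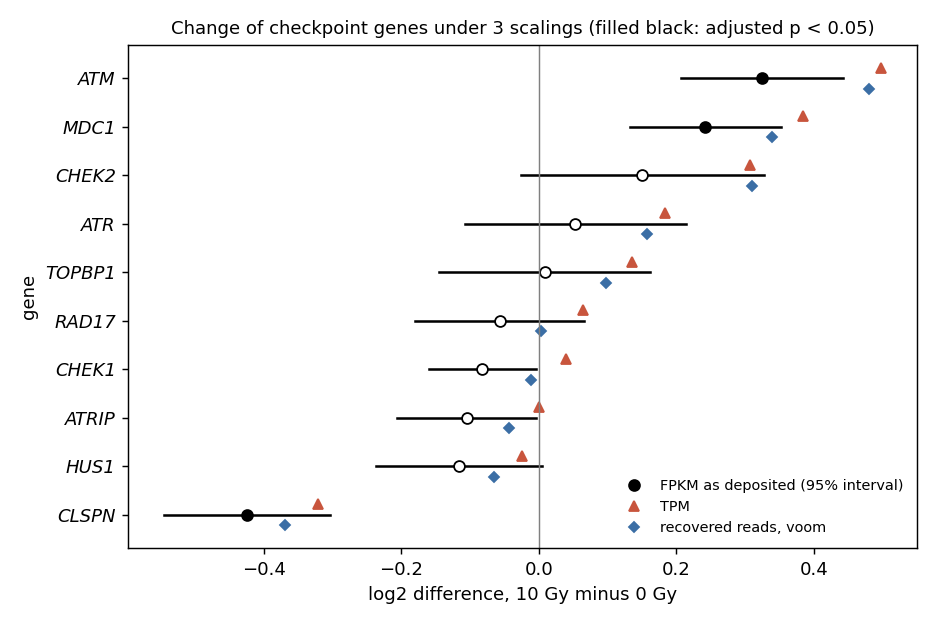
The log2 difference of each checkpoint gene, 10 Gy minus 0 Gy, on log2(FPKM + 1) with 95% intervals (circles, filled where the adjusted p is under 0.05), on TPM (triangles) and from reads recovered from the FPKM values (diamonds, limma voom). ATM (0.32, 0.50 and 0.48) and MDC1 (0.24, 0.39 and 0.34) lie above 0 and CLSPN (-0.42, -0.32 and -0.37) below 0 on all 3 scales, while CHEK1, ATRIP and RAD17 cross 0 between scales.

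A ratio of 2 genes within a library does not depend on the scaling of that library. For 7 such ratios the exact two-sided permutation test of 3 against 3 libraries cannot go below p = 0.1, so none could pass 0.05. CLSPN/CHEK1 was 1.09, 1.18 and 1.16 in the controls and 0.965, 0.874 and 0.827 after irradiation. By FPKM the mediator thus went from above to below its kinase (exact permutation p = 0.1, 0.175 after Benjamini-Hochberg adjustment over the 7 ratios). ATR/ATM was 1.08, 1.19 and 1.10 in the controls and 0.913, 0.903 and 0.864 after irradiation. By FPKM ATR was thus above ATM in every control and below it in every irradiated library. Whether a ratio lies above or below 1 depends on the annotated gene lengths, while its change between the groups does not. In reads recovered from the FPKM values, CLSPN was below CHEK1 in every control (1714 against 1898, 1346 against 1386 and 1899 against 1976). In these reads ATR was below ATM in all 6 libraries, with 1022 against 1815, 908 against 1458 and 1188 against 2067 in the controls. CHEK1/CHEK2 went from 5.60 ± 0.732 to 4.54 ± 0.173 and ATRIP/ATR from 1.12 ± 0.0981 to 0.981 ± 0.0122 (SD, n = 3). These 4 ratios had groups that did not overlap, and each had the same p as CLSPN/CHEK1 by the exact test. The groups overlapped for TOPBP1/ATR, at 2.86 ± 0.0403 and 2.75 ± 0.104, and for RAD17/HUS1, at 3.40 ± 0.0805 and 3.64 ± 0.441 (exact permutation p = 0.3 and 0.4).

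**Figure D3:**
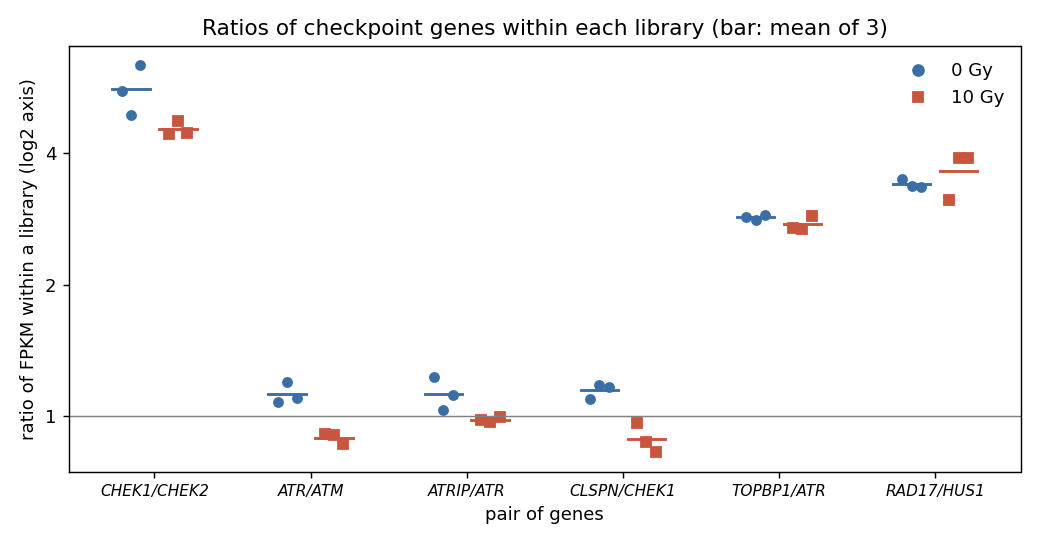
Ratios of the FPKM of 2 checkpoint genes within each library, on a log2 axis (circles, 0 Gy; squares, 10 Gy; bar, mean of 3; grey line, equal levels). The ratios CLSPN/CHEK1 and ATR/ATM lie above 1 in all controls and below 1 in all irradiated libraries, and the ratios TOPBP1/ATR and RAD17/HUS1 overlap between the groups. Where a ratio lies relative to 1 depends on the annotated gene lengths.

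The genes that work beside the 10 were read from lists of known partners. The counts of every list below stand beside 11.9% of all genes tested called higher and 23.7% called lower on FPKM as deposited. On TPM 3232 of 16391 genes tested were called higher and 972 lower. A list of 11 genes tested held the clamp, its loader, the other ATR activators and RPA1, RPA2 and RPA3, which bind single-stranded DNA. Of these 11, 8 fell and none rose, with a median log2 difference of -0.18. Under the other scalings and the length correction 3 to 6 fell. RPA1, RPA2 and RPA3 were among the 8, with log2 differences of -0.17, -0.18 and -0.24. RFC4, a shared subunit of the loader that RAD17 completes, went from 21.2 ± 1.22 to 15.7 ± 0.517 FPKM (log2 difference -0.41, adjusted p of 0.00139 by limma), and RFC5 and RFC2 fell by 0.32 and 0.29. The clamp partners of HUS1 were RAD1, which went from 9.29 to 8.43 FPKM with a call on FPKM as deposited and with the length trend removed but under no other scaling, and RAD9A, at 5.71 ± 0.418 and 5.65 ± 0.364 FPKM. RAD17 and HUS1 themselves gave no call.

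Of 8 genes tested that activate ATM or act with MDC1 on chromatin, 4 fell and none rose on FPKM as deposited, with a median of -0.14. Under the other scalings 4 also fell, while 1 rose after median-of-ratios scaling and 2 rose after upper quartile scaling, on TPM and with voom, and the median was as small as -0.04 on TPM. H2AFX, the histone variant that MDC1 binds once ATM has phosphorylated it, went from 217.6 ± 11.8 to 156.1 ± 0.404 FPKM (log2 difference -0.47, adjusted p of 0.000707 by limma). NBN, the subunit of the break sensor that recruits ATM, went from 18.7 ± 0.436 to 14.1 ± 0.177 FPKM (-0.38, adjusted p of 0.000593). KAT5, the acetyltransferase that primes ATM, fell by 0.36. These 3 fell under every scaling and the length correction, while ATM and MDC1 rose. MRE11, another subunit of the sensor, went from 7.10 ± 0.186 to 7.46 ± 0.0300 FPKM without a call on FPKM as deposited. It was called higher after upper quartile scaling, on TPM and with voom. RAD50, a further subunit of the sensor, was under 1 FPKM and not tested.

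TIPIN and CDC7 fell by 0.40 and 0.26 on the log2 scale among 5 fork protection genes that act beside CLSPN, and the other 3 gave no call. Among 9 relatives and assembly factors of ATM and ATR, SMG1, a kinase of RNA surveillance in the same family, went from 5.20 ± 0.779 to 7.33 ± 0.334 FPKM (log2 difference 0.43, adjusted p of 0.0101 by limma) and TRRAP, a kinase-like scaffold, rose by 0.30. TELO2, which helps these kinases fold, and RUVBL1 fell, RUVBL1 with a call on FPKM as deposited and with the length trend removed but under no other scaling. The median of this list was -0.04, and that of the fork list -0.06, and each was above 0 under some scalings.

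Downstream of CHEK1 and CHEK2, 4 of 13 effectors rose and 4 fell, with a median of 0.01 that was below 0 with the length trend removed. This balance depended on scaling, with 6 higher and 1 lower on TPM and 5 higher and 3 lower after upper quartile scaling. CCNB1, the cyclin whose kinase the checkpoint holds back, went from 127.5 ± 4.04 to 170.8 ± 1.94 FPKM (log2 difference 0.42, adjusted p of 0.000593 by limma). CDKN1A, an inhibitor of cyclin-dependent kinases, went from 30.7 ± 1.72 to 24.7 ± 1.90 FPKM (-0.30, adjusted p of 0.0102) and PKMYT1, an inhibitory kinase of CDK1, also fell by 0.30 on the log2 scale. On TPM over 16391 genes both lost their call, and over the same 12128 genes CDKN1A did. Of 10 genes that end the checkpoint or turn over its proteins, 2 rose and 3 fell, beside 11.9% higher and 23.7% lower over all genes tested. The median of this list was -0.05, and it was above 0 under TPM, upper quartile scaling and voom. On TPM 3 rose and none fell, and under each of the other scalings and the length correction 2 rose and 1 fell, since PPP2R1A and PPP1CA were called on FPKM as deposited alone. PLK1, which marks CLSPN for destruction when the checkpoint ends, went from 38.3 ± 0.606 to 50.1 ± 1.26 FPKM (0.38, adjusted p of 0.000593 by limma). FBXW11, an adaptor of the ligase that carries this out, rose by 0.15. BTRC, the related adaptor, went from 5.33 to 5.59 FPKM without a call under any scaling or the length correction. The phosphatase subunit PPP2CA fell by 0.21, a fall not called on TPM.

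CLSPN, which travels with the replication fork, fell. Of 14 genes of origin licensing and the replicative helicase, 11 fell and none rose, with a median of -0.24, and 7 to 9 fell under the other scalings and the length correction. GINS2 fell by 0.59, MCM5 by 0.45 and MCM6 by 0.43. Of 11 homologous recombination genes 3 fell, EXO1 by 0.50, RBBP8 by 0.44 and RAD54L by 0.38, and BRCA2 rose by 0.19, a rise not called with the length trend removed. This stands beside 23.7% of all genes tested that were lower. XRCC2, which helps form the recombinase filament, gave no call on FPKM as deposited and was called higher under every other scaling and with the length trend removed. Of 7 end joining genes 3 fell, XRCC5 by 0.26, XRCC6 by 0.16 and LIG4 by 0.15, of which XRCC6 and LIG4 were called on FPKM as deposited and not under the other scalings or the length correction. Of 11 mitotic genes 8 rose and 1 (AURKB) fell under every scaling and the length correction, led by CCNB2 (0.55) and AURKA (0.49). CCNB1, CDK1 and PLK1 stand in this list and in those of the effectors or recovery genes.

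**Figure D4:**
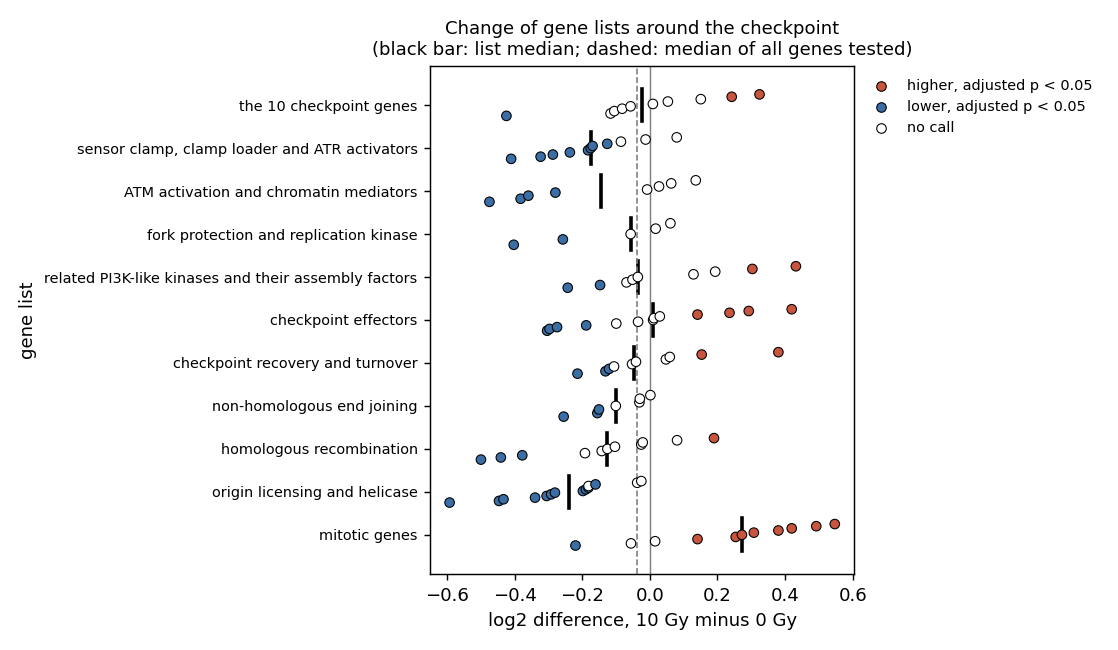
Change of the 10 checkpoint genes and of the gene lists around them, as the log2 difference 10 Gy minus 0 Gy on log2(FPKM + 1), with 1 point per gene tested (filled, adjusted p under 0.05; black bar, median of the list; dashed line, median of all genes tested, -0.04). The 10 checkpoint genes spread from -0.42 to 0.32 around a median of -0.02, the origin licensing list sits lowest (median -0.24) and the mitotic list highest (median 0.27).

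By the mean absolute difference between centred log2(FPKM + 1) profiles over the 6 libraries, the protein-coding genes most like ATM were NSUN7 (0.0080), ATRN (0.011) and UBN2 (0.016). The genes most like ATR were TNRC6A, FMN1 and CDON, those most like CHEK1 were RHOT1, STAM and CD164, and those most like CHEK2 were TMEM67, TAPBPL and ZNF844. None of these 12 is among the genes of the lists above.

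Across the series, 15643641 to 28861781 reads per library were recovered from the FPKM values, and the correlation over all genes tested was at least 0.992 between libraries of 1 dose and at most 0.989 across doses. VIM (247 to 312 FPKM), AXL, CD44, EGFR, KRT8 and KRT18 were present, and ESR1 (at most 0.0169 FPKM), PGR (0) and CDH1 (at most 0.479 FPKM) were absent or near 0. Of the other genes listed as low in MDA-MB-231, ERBB2 was at 6.76 to 8.08 FPKM and GATA3, a luminal marker, at 2.70 to 3.24 FPKM. The summed level of 8 markers of other cell types was 4.64 to 4.77 FPKM in the controls and 6.30 to 6.55 after irradiation, mostly from COL1A1 and PECAM1, while CD3E was at 0, PTPRC at most at 0.0071 and COL3A1 at most at 0.0098 FPKM. The part of these markers in the changes of the checkpoint genes was not tested. FPKM compares RNA per total RNA, and fewer cells with a transcript and less of it per cell cannot be told apart.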

How the data were processed

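RNA of 6 MDA-MB-231 libraries was sequenced by the authors' provider, Novogene, from polyA-selected RNA. The authors deposited FPKM values, 1 column per library and none of other samples, with gene coordinates and lengths. The submitters' processing notes name HISAT2 and GRCh38, and the counting program and its strand setting are not given in the sources used here. Coordinates and lengths equalled merged GENCODE 29 exons for 58724 of 58735 genes. Since the values are FPKM, no count test was the main test. Each FPKM was multiplied by gene length and by the depth its steps imply, which gave whole reads (within 0.01) for 100% of values. These reads were summed per library for the depth reported, and were used in 1 alternative. The depth that the FPKM imply was 0.973 to 0.991 of that sum in the controls and 1.03 to 1.04 after irradiation. FPKM of irradiated libraries are thus lower, relative to these reads, than those of controls. The part of this in the small differences was not tested.

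Samples were grouped by their titles. The test was limma 3.58.1 in R 4.3.3 on log2(FPKM + 1), with an intensity trend, two-sided, over 12128 genes whose mean reached 1 FPKM. Fold changes are ratios of mean FPKM, and log2 differences are on the log2(FPKM + 1) scale, which understates changes of low genes. The steps were tested on simulated data. Alternatives changed the pseudocount (0.1), filter (none, 5 FPKM), scaling (upper quartile, TPM, median of ratios), moderation, gene set, replicate block and unit (limma voom), left out each library, removed the trend on gene length, or took TPM over the same genes, the last 2 added after the data were seen. Named genes were the 10 checkpoint genes, up to 3 called genes with the largest change per list, list genes whose role a sentence needed, genes overlapping the 10, and, for ATM, ATR, CHEK1 and CHEK2, the 3 protein-coding genes with the closest profile. The members and lists were chosen with earlier results of these data known. Of 7 ratios between genes tested within libraries, 1 is not reported here.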

Additional observations from a re-analysis of the deposited data

How the results depend on the processing

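ATM and MDC1 stayed higher and CLSPN lower, past the threshold, in every alternative that tested them, so the counts over the 10 genes were 2 higher and 1 lower in all but 3 alternatives. With a minimum of 5 FPKM, 1 of the 10 was higher, since ATM was not tested. CHEK2 was called with voom and on TPM over the same 12128 genes, which made 3 higher. Counts over all genes moved more. Genes higher numbered 1443, and 874 at 5 FPKM, 2556 after upper quartile scaling, 3232 on TPM (16391 genes tested), 3113 on TPM over the same 12128 genes and 2844 with voom. Genes lower numbered 2874, and 1815 without a filter, 1444 after upper quartile scaling, 972 on TPM, 1066 on TPM over the same genes and 1884 with voom. Leaving out 1 library gave 2660 to 3993 genes changed of 4317, 852 to 1393 higher and 1808 to 2630 lower, with 2705 changed without RT replicate 1 and 2660 without RT replicate 2. The sign turned for genes without a call. CHEK1 was at 0.0035 after upper quartile scaling and 0.0395 on TPM, ATRIP at 0.00030 on TPM, and RAD17 at 0.0269, 0.0641, 0.0028 and 0.0047 after upper quartile scaling, on TPM, with voom and with the length trend removed, the TPM values being the same over both gene sets. Without single libraries, ATR ran from -0.0136 (without control replicate 1) to 0.11 and TOPBP1 from -0.0663 (without control replicate 1) to 0.0619, TOPBP1 being at -0.0058 without RT replicate 1. The cause of these turns was not tested. Same-numbered libraries of the 2 groups did not deviate together (correlations -0.0405, -0.0349 and -0.101), and the other pairs ran from -0.0518 to 0.0937. So few values cannot show whether same-numbered libraries shared a culture or a day. With the replicate number as a block, 3503 genes were called, 1137 higher and 2366 lower, and among the 10 genes 2 were higher and 1 lower. The read counts limit CHEK2 (194 to 385 reads) and HUS1 (204 to 372 reads) most.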
